A study of Mus musculus with 7 samples.

Results

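The cells described here are mouse thyroid follicular cell organoid (TFCO) cells with high and with low thyroglobulin. Thyroid follicular cells (TFCs) make thyroglobulin (Tg), a very large glycoprotein, fold it in the endoplasmic reticulum (ER) and secrete it into the follicle lumen. There iodine is coupled to it, and the stored protein is later taken up and cut by lysosomal proteases, which frees thyroid hormone. The question was which other transcripts go up or down with Tg from cell to cell within an organoid culture.

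The cells were selected on their measured Tg level. In each organoid sample they were ranked by Tg and cut into 5 rank groups of equal size, and rank group 5 (high-Tg cells) was compared with rank group 1 (low-Tg cells). Only cells with at least 3000 unique molecular identifiers (UMIs, 1 per captured mRNA molecule) and with UMIs of at most 1 of 9 cycling markers were ranked. This left 838 of 1843 organoid cells, and the groups hold 166 high-Tg and 166 low-Tg cells, or 332 of the 2590 cells of the series. The Tg value itself chose the groups, so Tg is described and was not tested, and it was left out of each cell's total before the level of any other gene was computed.

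The series holds 7 single-cell samples of wild-type C57BL/6 mice: 2 of thyroid tissue, 3 of late passage TFCOs (late 1 to 3) and 2 of early passage TFCOs (early 1 and 2). All TFCOs were grown from dissociated thyroid of surplus female mice, in basement membrane extract with forskolin (which raises cAMP), R-spondin 3, the TGF-beta receptor inhibitor A83-01, EGF and FGF10, and none received a treatment. The labels do not say which animals or lines the 5 organoid samples came from, and the series text counts 2 replicates for each description although 3 late samples are given, so the p-values measure the spread between these samples, which may be technical.

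Live (DAPI-negative) cells were sorted 1 per well and sequenced by SORT-seq, a plate method that counts the 3′ ends of mRNAs. The organoid samples held 1985836 to 4703472 UMIs, and each group of high-Tg or low-Tg cells in a sample rests on 139201 to 508231 UMIs. Late 2 and early 1 stood apart by their cycling cells: 155 and 115 of their cells with 3000 UMIs were left out for 2 or more cycling markers, against 27, 51 and 44 in late 1, late 3 and early 2. All 384 well barcodes occurred in 2 or more organoid samples, since every plate uses the same set. Among the 143 barcodes of high-Tg cells, 22 were in the high group of 2 or more samples, and 49 barcodes were in a high group and in a low group.

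Tg spread widely in every sample. The median of the high-Tg cells was 233, 154, 351, 179 and 345 UMIs per 10000 of the cell in late 1, late 2, late 3, early 1 and early 2, and sample values below keep this order. The median of the low-Tg cells was 35.5, 24.2, 41.3, 20.1 and 33.7. No ranked cell was without a Tg UMI, and the cell with the least Tg, in late 2, had 1.96 per 10000.

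The boundary between the groups and the cells between them was set by rank and was not a gap in the data. The last cell inside the high group had 194, 118, 249, 106 and 231 per 10000, and the first cell outside it had 191, 118, 239, 106 and 229. At the lower end, the last cell inside had 66.9, 34.7, 64.5, 37.0 and 58.9 and the first outside had 67.1, 35.3, 65.0, 38.4 and 59.4. The late 2 and early 1 high groups thus reached down to levels that lay in the middle of the other samples, and a level called high in one sample is not high in all.

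**Figure D1:**
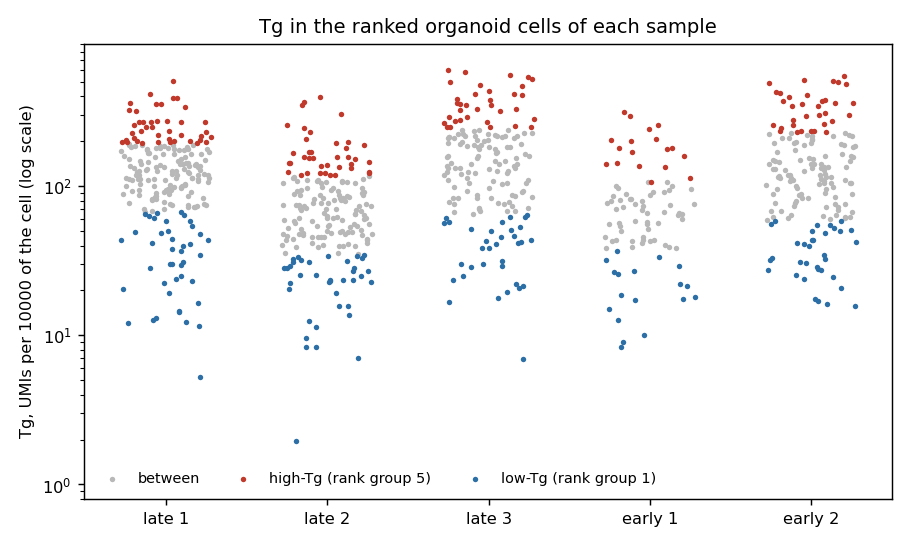
Tg in each of the 838 ranked cells (vertical axis, UMIs per 10000 of the cell, log scale) by sample (horizontal axis, points spread sideways at random), with high-Tg cells in red, low-Tg cells in blue and cells between them in grey. The values run without a gap from group to group, and late 2 and early 1 sit lower than the other 3 samples.

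Depth was close in both groups. The median UMIs per cell without Tg were 6529, 11622, 8608, 7157.5 and 8727.5 in high-Tg cells and 6115, 12536.5, 9000, 6773 and 9555.5 in low-Tg cells. The mean difference on the log2 scale was -0.029 ± 0.10 (SD, n = 5), with high-Tg cells deeper in 2 of 5 samples (exact two-sided sign-flip permutation p = 0.500, where 0.0625 is the smallest that 5 samples can give). The share of UMIs from mitochondrial genes was higher in high-Tg cells in 5 of 5 samples, at sample medians of 4.54 to 7.38% against 3.89 to 6.28% (difference 0.873 percentage points ± 0.177, SD, n = 5, exact sign-flip permutation p = 0.0625).

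Both groups carried follicular cell transcripts. Without Tg, 13 other follicular identity markers summed to 24.4 to 39.7 UMIs per 10000 in high-Tg cells and 24.5 to 33.0 in low-Tg cells. Markers of other cell types of the gland were low in both groups. The 11 endothelial markers summed to 0.968 to 2.29 in high-Tg and 1.33 to 2.86 in low-Tg cells, with Egfl7 and Cldn5 at 0. The 9 mural markers summed to 0.271 to 1.10 and 0.326 to 1.40, the 8 stromal markers to 0.0262 to 0.418 and 0.0965 to 0.615, and the 11 immune markers to 0.0978 to 0.281 and 0.116 to 0.322, where Lyz2, C1qa, C1qb and Coro1a were at 0. Of the C cell, parathyroid and erythroid lists, none summed to more than 0.975, and Pth and the 4 globin genes were at 0.

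High-Tg cells had more mRNA of Ccn4 and Pla2g7, of the iodide uptake gene Slc5a5 and of the secreted or vesicular proteins Napsa and Dcpp3. They also had more of the metallothioneins Mt1 and Mt2, of the protease Ctsl and of the ER chaperone Calr. Plekhs1, Gstm1, Alk, Anxa1 and Actb were lower in them. With limma (1 mean per group and sample, the sample as block, Benjamini-Hochberg adjusted p under 0.05), 39 of 4623 tested genes were called, which is 0.844%. Of these, 27 (0.584% of the genes tested) were higher and 12 (0.260%) were lower in high-Tg cells, and the median log2 difference over all genes was -0.011. All 39 had the same sign in 5 of 5 samples, a pattern that 4.91% of the genes tested showed upward and 5.32% downward. For 16 of the 39 the 5 high-Tg and the 5 low-Tg values did not overlap, against 0.844% of the genes tested. The same values chose the 39 genes, so both counts are a description. With 1 sample left out in turn, the calls of Ccn4, Napsa, Dcpp3, Plekhs1 and Alk were kept in 5 of 5 fits. Those of Slc5a5, Calr and Actb were kept in 1 and that of Anxa1 in 0. Napsa, Dcpp3, Dcpp2, Pla2g7, Cpne8, Ppp1r1b, Mt2, Smoc2, Slc1a1, Alk, Anxa1, Aldh1a1, Thbs1, Ctsl and mt-Co1 overlap an annotated gene on the other strand, and Ces1d, Alk, Ctsl, Dcpp2 and mt-Nd4 overlap one on the same strand. Whether reads were counted by strand is not given in the sources used here, so the counts of these genes are uncertain to that extent.

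Most calls were near the threshold. The count was 0 when the 494 ranked cells with UMIs of 3 or more S phase genes were left out (67 cells per group, 306 genes at an unadjusted p under 0.05), and 6 when no cycling marker was allowed (100 cells per group). No called gene that could be fitted changed direction in either setting, and fewer cells were compared. Of the 39, 38 were fitted without the cells of 3 or more S phase genes, where Thbs1 was below the filter on low values. All 39 were fitted with no cycling marker. Without the cells of 3 or more S phase genes, 57 of 67 high-Tg and 64 of 67 low-Tg cells were in the main groups. With no cycling marker, 97 and 99 of 100 were. These cells chose the 39 genes, so the kept direction is a description. The mark of 3 S phase genes counts detected genes, and its dependence on depth was not tested. Leaving out 1 sample gave 9 genes without late 1, 19 without late 2, 10 without late 3, 30 without early 1 and 13 without early 2. Of the 39 genes, 7, 18, 9, 25 and 12 were among these, in the same order. Leaving out both late 2 and early 1, the samples with most cycling cells, gave 41 genes, with 27 of the 39 among them. When cells were ranked by Tg within 5 depth bins, 21 genes were called, 18 higher and 3 lower. Plekhs1 and Alk were still called lower there. Gstm1, Anxa1 and Actb, at -0.64, -0.49 and -0.60, and Mt2, at 0.59, did not pass. Cells with 3 or more S phase genes made up 107 of 166 high-Tg and 97 of 166 low-Tg cells (difference of the sample shares 5.25 percentage points ± 12.7, SD, n = 5, exact sign-flip permutation p = 0.312).

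Of 18 genes for hormone synthesis and iodide handling, 5 were abundant enough to test. Of these 1 rose with Tg, where 0.584% of all genes tested were called higher. All differences here and below are of log2(level + 1), which understates the change of genes with low levels. Slc5a5, the basolateral sodium iodide symporter that brings iodide into the cell, was at 1.24, 1.11, 1.22, 0.788 and 1.41 per 10000 in high-Tg cells and at 0.0330, 0.569, 0.278, 0.668 and 0.110 in low-Tg cells. The groups did not overlap, but in early 1 the levels were close to each other. The group means of 1.15 ± 0.230 and 0.332 ± 0.279 (SD, n = 5) rest on 178 and 58 UMIs. On the log2 scale the groups were 0.71 ± 0.15 apart (SE, limma adjusted p = 0.0381). The call was kept in 1 of the 5 fits that leave out a sample.

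The remaining tested genes of hormone handling did not pass. Slc26a7, an iodide transporter, differed by 0.39 ± 0.15 (log2, SE, adjusted p = 0.427), being lower in the high-Tg cells of late 2 (3.32 against 3.63) and higher in those of the other samples. Iyd, which recovers iodide from iodotyrosines, differed by 0.25 ± 0.14. The potassium channel gene Kcnq1 differed by 0.09 ± 0.11 and Cyba, a subunit of NADPH oxidases, by -0.06 ± 0.13. The median of the 5 genes was 0.25, beside -0.011 over all genes tested.

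The hydrogen peroxide generator and the apical iodide exporters averaged less than 0.5 UMIs per 10000 and were left out of the test by this filter. Duox2, an oxidase that makes hydrogen peroxide for iodination, had 48 UMIs in high-Tg and 49 in low-Tg cells, and its maturation factor Duoxa2 had 17 and 13. Slc26a4 (pendrin) had 21 and 8 UMIs, Dio1 (deiodinase) had 30 and 27, and Ano1 (a chloride channel that also passes iodide) had 63 and 66. Kcne2 had no UMI in either group. In the fit without a filter none of those with UMIs passed. Duox2 differed by 0.06 ± 0.09 (log2, SE, limma adjusted p = 0.878), Slc26a4 by 0.13 ± 0.09 (adjusted p = 0.847), Dio1 by -0.04 ± 0.09 and Ano1 by 0.10 ± 0.16.

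None of the transcription factors that define the thyroid lineage passed the test. Pax8 was at 7.27, 4.93, 5.10, 2.71 and 2.36 UMIs per 10000 in high-Tg cells and at 4.83, 4.98, 3.86, 6.34 and 2.78 in low-Tg cells, a log2 difference of -0.07 ± 0.18 (SE, limma adjusted p = 0.939). It was higher in the high-Tg cells of late 1 and late 3 and lower in those of the others. Nkx2-1 differed by 0.11 ± 0.14, Foxe1 by 0.27 ± 0.12, Hhex by 0.04 ± 0.12 and Glis3 by 0.04 ± 0.13, with adjusted p of 0.541 or more. Foxe1, a forkhead factor that binds the Tg promoter, had an unadjusted p under 0.05 upward, as had 4.63% of the genes tested.

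The TSH receptor and its cAMP pathway gave the same picture of small values. Tshr was at 6.19, 6.70, 3.50, 7.23 and 3.92 UMIs per 10000 in high-Tg and at 4.10, 7.32, 4.32, 5.86 and 3.77 in low-Tg cells (log2 difference 0.09 ± 0.13, SE, adjusted p = 0.873). Of 15 tested genes of the pathway none was called, 1 was lower at an unadjusted p under 0.05 (background 4.56%), and the median was -0.035. The medium of all organoid samples holds forskolin, which activates adenylyl cyclase below the receptor. Its bearing on these values was not tested.

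**Figure D2:**
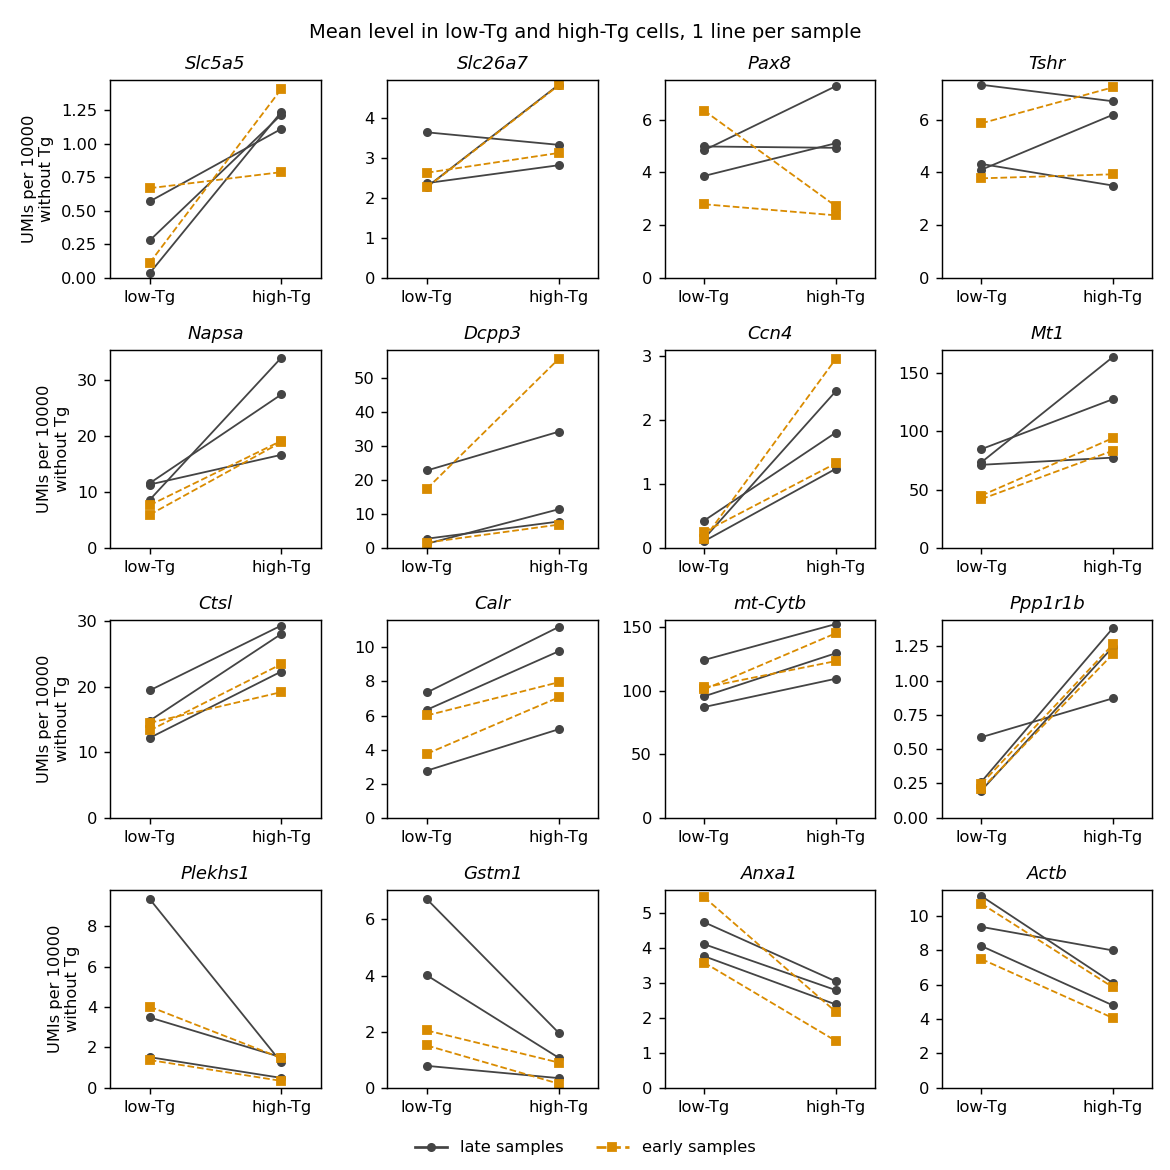
Mean level (vertical axes, UMIs per 10000 without Tg, linear and starting at 0) in the low-Tg and high-Tg cells (horizontal axes) of 16 genes, with 1 line per sample, grey circles for late and orange squares for early samples. The lines of Slc5a5, Napsa, Ctsl and Calr rise in all 5 samples and those of Plekhs1, Gstm1, Anxa1 and Actb fall in all 5, while the lines of Pax8 go both ways.

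Genes that fold proteins in the ER were mostly higher in high-Tg cells, though 1 of 23 tested passed. Of all genes tested, 0.584% were called higher. Calr encodes calreticulin, a calcium-binding chaperone of newly made glycoproteins. Its level was 5.19, 9.77, 11.2, 7.95 and 7.06 UMIs per 10000 in high-Tg cells and 2.77, 6.34, 7.35, 6.01 and 3.76 in low-Tg cells. It was higher in the high-Tg cells of every sample, with overlap between samples (log2 difference 0.59 ± 0.12, SE, limma adjusted p = 0.0348), and the call was kept in 1 of 5 fits without a sample.

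Of the 23 tested genes of ER folding and the unfolded protein response, 11 were higher at an unadjusted p under 0.05 and 0 lower, where 4.63% of all genes were higher. The median log2 difference was 0.22, beside -0.011 over all genes. The chaperone Hspa5 (BiP) differed by 0.63 (adjusted p = 0.0539), Hsp90b1 by 0.56 (adjusted p = 0.0610), the disulfide isomerase Pdia6 by 0.52 (adjusted p = 0.0653) and Ero1lb, a thiol oxidase, by 0.65 (adjusted p = 0.0697), and these did not pass. Xbp1, a transcription factor of the unfolded protein response, differed by 0.04 and Hyou1, another ER chaperone, by -0.02. Among 35 tested genes of ER translocation and early secretory transport, 0 were called, 3 were higher at an unadjusted p under 0.05, and the median was 0.12.

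The genes of Tg uptake and lysosomal digestion showed a like pattern. Ctsl, cathepsin L, a lysosomal cysteine protease that can cut Tg, was at 28.1, 22.3, 29.4, 19.2 and 23.5 UMIs per 10000 in high-Tg and at 14.8, 12.2, 19.4, 14.5 and 13.3 in low-Tg cells. The lowest high-Tg value, in early 1, was just under the highest low-Tg value, in late 3. High-Tg cells were 0.68 ± 0.11 higher on the log2 scale (SE, limma adjusted p = 0.00775). The call was kept in 4 of 5 fits without a sample.

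Of the 21 tested genes of this list, 1 was called higher, as were 0.584% of all genes tested. At an unadjusted p under 0.05, 8 were higher (background 4.63%), and the median was 0.22. Cathepsin B (Ctsb) differed by 0.48 (adjusted p = 0.0522), cathepsin A (Ctsa) by 0.49 and the sphingolipid activator precursor Psap by 0.46, and these did not pass. The uptake receptor Lrp2 (megalin) differed by 0.30 and its chaperone Lrpap1 by 0.37. Lamp1, a membrane protein of lysosomes, was at -0.01.

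Among secreted proteins and genes known from lung or salivary epithelium, 4 of 11 tested genes rose and 0 fell, where 0.584% of all genes tested were called higher. This and the other gene lists were chosen with earlier results of these data known, so counts of their members are a description. Napsa encodes napsin A, an aspartic protease best known from alveolar type II cells and kidney. It was at 27.4, 16.6, 33.9, 19.1 and 18.8 UMIs per 10000 in high-Tg cells and at 11.5, 11.3, 8.54, 7.58 and 5.88 in low-Tg cells. The groups did not overlap, at a fold of 2.59 between the means and a log2 difference of 1.26 ± 0.15 (SE, limma adjusted p = 0.000912).

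Dcpp3 belongs to the demilune cell and parotid protein family of salivary secretions and had the largest log2 difference of the called genes. Its level was 7.70, 34.2, 11.3, 55.6 and 6.78 UMIs per 10000 in high-Tg and 2.65, 22.8, 1.16, 17.4 and 1.499 in low-Tg cells. Late 2 and early 1 were the highest in both groups (log2 difference 1.52 ± 0.19, SE, limma adjusted p = 0.00130). Its neighbour Dcpp2 rose by 0.57 ± 0.13 (adjusted p = 0.0489). The call of Dcpp3 was kept in 5 and that of Dcpp2 in 0 of the 5 fits without a sample. In the transcripts 45.8% of the stretches of 50 bases of Dcpp3 also occur in other genes, mostly Dcpp2, so the counts of the pair are uncertain. Scg5, a chaperone of prohormone convertase in secretory granules, rose by 0.61 ± 0.13 (adjusted p = 0.0381), a call kept in 1 of 5 fits without a sample. The surfactant protein gene Sftpb was at 0.51 without passing.

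The metallothioneins Mt1 and Mt2, small cysteine-rich proteins that bind zinc and copper, rose together. Mt1 was at 164, 77.5, 128, 83.5 and 94.3 UMIs per 10000 in high-Tg and at 73.4, 71.3, 84.8, 41.8 and 44.8 in low-Tg cells, a log2 difference of 0.78 ± 0.12 (SE, limma adjusted p = 0.00775). Mt2 was at 69.9, 33.1, 51.2, 32.05 and 38.2 against 34.3, 30.1, 36.0, 16.8 and 18.7, a log2 difference of 0.71 ± 0.12 (SE, adjusted p = 0.0168). In late 2 the difference was small for both genes, and the low-Tg cells of both early samples were below those of all late samples. The calls of Mt1 and Mt2 were kept in 4 and 2 of the 5 fits without a sample.

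Both genes lie near each other on the plus strand of chromosome 8, and their start regions are shown because these neighbours moved together. The sequences (RefSeq, GRCm38.p6, 250 bases before to 50 after the start, 5′ to 3′ on the plus strand) were searched on both strands for the core of the metal response element, TGCACNC or TGCGCNC, where the factor MTF1 is known to bind. Capitals mark each match.
Mt1, chr8:94178839-94179138: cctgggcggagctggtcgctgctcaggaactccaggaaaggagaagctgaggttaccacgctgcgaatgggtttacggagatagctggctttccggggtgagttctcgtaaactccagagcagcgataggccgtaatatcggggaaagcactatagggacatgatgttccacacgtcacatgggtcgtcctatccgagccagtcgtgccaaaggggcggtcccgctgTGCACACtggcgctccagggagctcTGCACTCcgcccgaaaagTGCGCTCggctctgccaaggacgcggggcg
Mt2, chr8:94172368-94172667: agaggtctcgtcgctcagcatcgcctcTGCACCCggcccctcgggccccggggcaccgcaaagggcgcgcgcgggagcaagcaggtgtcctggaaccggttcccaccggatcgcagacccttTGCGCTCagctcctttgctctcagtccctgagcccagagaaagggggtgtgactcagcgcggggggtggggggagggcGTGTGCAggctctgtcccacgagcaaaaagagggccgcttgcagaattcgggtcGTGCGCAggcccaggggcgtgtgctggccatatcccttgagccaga
Mt1 held 3 matches and Mt2 held 4. At least 1 match occurred in 25.7% of 32851 promoters of the same length, and 3 or more in 1.97%. A match is a run of letters and was not tested for binding, and its bearing on the rise with Tg was not tested.

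No other tested gene of redox defence rose with the metallothioneins. Gstm1, a glutathione S-transferase, fell from 6.72, 0.783, 4.01, 1.51 and 2.04 UMIs per 10000 in low-Tg cells to 1.97, 0.346, 1.07, 0.148 and 0.902 in high-Tg cells (log2 difference -0.97 ± 0.15, SE, limma adjusted p = 0.00775). It was lower in the high-Tg cells of all 5 samples, with overlap between samples, and 18.9% of its stretches of 50 bases also occur in other genes, mostly a pseudogene, so its count is uncertain. Its call was kept in 3 of 5 fits without a sample. Of the 18 tested genes of the list, 2 were called higher and 1 lower, where 0.584% and 0.260% of all genes tested were. The other 15 did not pass and the median was -0.11. The peroxide-removing enzymes Gpx1, Prdx1 and Cat were at -0.11, -0.16 and -0.12.

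Of 7 tested transcripts of the mitochondrial genome, 3 rose with Tg (0.584% of all genes were called higher) and 5 were higher at an unadjusted p under 0.05 (background 4.63%), with a median of 0.34. mt-Cytb, a subunit of complex III, was at 109, 129, 152, 123 and 145 UMIs per 10000 in high-Tg and at 87.1, 95.5, 124, 103 and 101 in low-Tg cells (log2 difference 0.37 ± 0.07, SE, limma adjusted p = 0.0281). mt-Nd4 (complex I) rose by 0.34 ± 0.07 and mt-Co1 (complex IV) by 0.56 ± 0.12, both at an adjusted p of 0.0381. Stretches of 50 bases that also occur in other genes, mostly nuclear copies, make up 62.2% of mt-Nd4 and 51.1% of mt-Co1, so their counts are uncertain. The calls of mt-Nd4 and mt-Co1 were kept in 0 and that of mt-Cytb in 1 of the 5 fits without a sample. mt-Nd1, mt-Nd2, mt-Nd5 and mt-Atp8, at 0.17, 0.24, 0.40 and 0.07, did not pass. Of the 55 tested nuclear genes of oxidative phosphorylation 0 were called (2 higher and 1 lower at an unadjusted p under 0.05) with a median of -0.044, and of 76 ribosomal protein genes 0 were called (4 higher at an unadjusted p under 0.05), with a median of 0.055.

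Several further genes rose with Tg. Ccn4, a Wnt-inducible matricellular protein also called WISP1, was at 1.23, 2.45, 1.80, 1.32 and 2.96 UMIs per 10000 in high-Tg and at 0.101, 0.141, 0.424, 0.245 and 0.139 in low-Tg cells. The groups were far apart, at 365 against 30 UMIs and a fold of 9.28 between the means (log2 difference 1.26 ± 0.15, SE, limma adjusted p = 0.000813). It was past the threshold in 25 of 26 alternatives and in all 5 fits without a sample.

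Ccn4 is also the next gene downstream of Tg on the same strand. In GRCm38 (GENCODE M21), Tg spans chr15:66670753-66850721 and Ccn4 chr15:66891320-66923201, both on the plus strand, so that 40.6 kb lie between them. The other neighbours did not stand out in this way. Phf20l1, 22.8 kb upstream, was at 0.879 against 1.00 per 10000 (log2 difference -0.091) and St3gal1, 252 kb downstream, at 1.71 against 2.01. Ndrg1, 78.6 kb downstream on the minus strand, had 71 and 45 UMIs, and the minus strand genes within Tg, Sla and Gm17140, had 15 and 7 and 1 and 0 UMIs. Whether the position next to Tg bears on the Ccn4 count was not tested.

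Pla2g7, the platelet-activating factor acetylhydrolase, rose from 4.71, 4.72, 5.18, 3.45 and 3.31 UMIs per 10000 to 10.5, 7.89, 8.48, 5.50 and 8.31 (log2 difference 0.78 ± 0.13, SE, limma adjusted p = 0.00775). Ppp1r1b, known as DARPP-32, an inhibitor of protein phosphatase 1 that protein kinase A switches on, rose from 0.198, 0.588, 0.262, 0.247 and 0.209 to 1.25, 0.872, 1.38, 1.27 and 1.19 (0.76 ± 0.13, adjusted p = 0.0122). For both the groups did not overlap. The carboxylesterase gene Ces1d rose by 0.78 ± 0.14, the copine gene Cpne8 by 0.78 ± 0.14 and the matricellular protein gene Smoc2 by 0.69 ± 0.13, with adjusted p of 0.0173, 0.0170 and 0.0211. Without 1 sample, the call of Pla2g7 was kept in 4 of 5 fits and those of Ppp1r1b, Ces1d, Cpne8 and Smoc2 in 2.

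The MHC class I gene H2-D1 rose by 0.57 ± 0.12 (log2, SE, adjusted p = 0.0390), and it shares 12.8% of its stretches with other genes, so its count is uncertain. Its call was kept in 0 of 5 fits without a sample. The other 4 tested genes of the MHC and interferon list, among them H2-K1 at 0.08 and B2m at 0.13, did not pass. Of all genes tested, 0.584% were called higher. The called genes that the naming rule left out, given here after their values were seen, are Itm2b, Moxd1, Nptx1, Prom2 and Tcn2, which rose by 0.47 to 0.68. Their calls were kept in 0 to 2 of the 5 fits without a sample. A further 4 called genes were predicted loci, 2 higher and 2 lower.

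**Figure D3:**
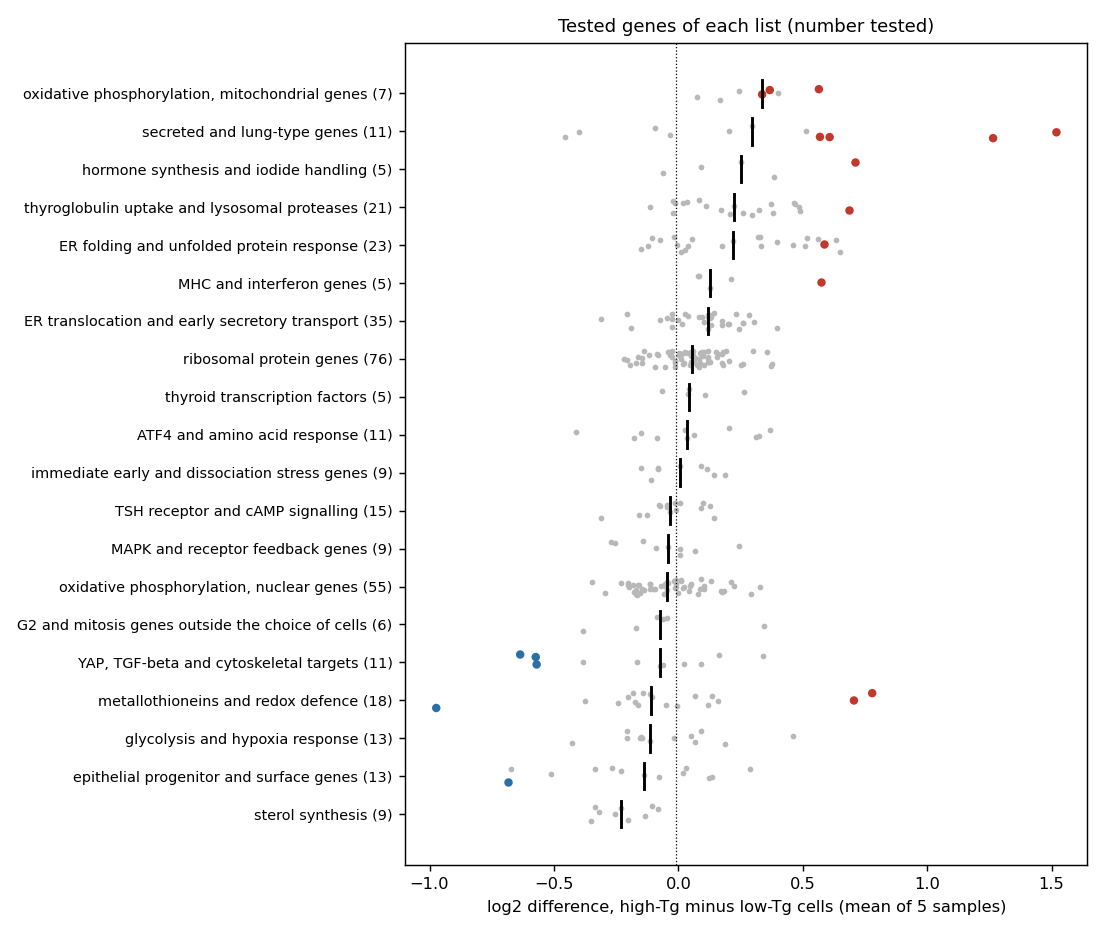
Log2 differences between high-Tg and low-Tg cells (horizontal axis, mean of 5 samples) of the tested genes of 20 lists (rows, with the number tested), where red and blue points are called higher and lower, grey points are not called, black bars are list medians and the dotted line is the median of all genes. The secreted and the mitochondrial list hold the most red points, with 4 and 3, and the cytoskeletal list holds 3 blue points.

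Of 11 tested genes of the mixed YAP, TGF-beta and cytoskeletal list, Actb, Tpm1 and Thbs1 fell and 0 rose, where 0.260% of all genes were called lower and 0.584% higher. Actb, cytoplasmic beta-actin, was at 4.79, 7.99, 6.09, 5.85 and 4.06 UMIs per 10000 in high-Tg and at 8.25, 9.36, 11.2, 10.7 and 7.49 in low-Tg cells. It was lower in the high-Tg cells of each sample and least so in late 2 (log2 difference -0.64 ± 0.12, SE, limma adjusted p = 0.0281). Tpm1, an actin-binding tropomyosin, fell by 0.57 (adjusted p = 0.0482) and Thbs1, the matricellular protein thrombospondin, by 0.57 (adjusted p = 0.0390). Without 1 sample, the call of Actb was kept in 1 of 5 fits and those of Tpm1 and Thbs1 in 0 of 5. Other genes of the list did not pass, among them Actg1, the other cytoplasmic actin, at 0.02 and the tropomyosin Tpm4 at -0.06, and the median of the list was -0.075.

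Plekhs1, which encodes a pleckstrin homology domain protein, fell the most. Its level was 3.48, 1.52, 9.35, 1.38 and 4.02 UMIs per 10000 in low-Tg and 1.51, 0.491, 1.26, 0.342 and 1.47 in high-Tg cells, a log2 difference of -1.13 ± 0.18 (SE, limma adjusted p = 0.00775). Low-Tg cells of late 3 were the highest by far, and the call was kept in all 5 fits without a sample. Anxa1, annexin A1, which the epithelial progenitor and surface list holds, was at 4.11, 3.77, 4.74, 3.58 and 5.46 in low-Tg and at 2.80, 2.39, 3.05, 1.34 and 2.18 in high-Tg cells, without overlap (-0.68 ± 0.13, adjusted p = 0.0281). Its call was kept in 0 of 5 fits without a sample and in 10 of 26 alternatives. In that list 1 of 13 tested genes was called lower, where 0.260% of all genes tested were, and the median was -0.14. Clu (clusterin) and Anxa2 were at -0.67 and -0.51 and did not pass.

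The receptor tyrosine kinase gene Alk fell from 3.37, 17.8, 11.8, 14.6 and 11.5 UMIs per 10000 in low-Tg cells to 1.76, 11.4, 6.72, 8.06 and 3.88 in high-Tg cells (log2 difference -0.83 ± 0.13, SE, limma adjusted p = 0.00775). Late 1 was the lowest in both groups. Slc1a1, a glutamate and cysteine transporter, fell by 0.83 (adjusted p = 0.0213), Crygs, a crystallin, by 0.78 (adjusted p = 0.0381) and Aldh1a1, a retinaldehyde dehydrogenase, by 0.63 (adjusted p = 0.0477). Crygs rests on 40 UMIs in high-Tg and 243 in low-Tg cells. The call of Alk was kept in all 5 fits without a sample, that of Slc1a1 in 2 and those of Crygs and Aldh1a1 in 1.

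The remaining lists held no called gene. The 9 tested genes of sterol synthesis had differences below 0 without exception, from -0.35 to -0.081 with a median of -0.23, and 2 of them were lower at an unadjusted p under 0.05 (background 4.56%). The medians were -0.11 for 13 genes of glycolysis and hypoxia response, -0.042 for 9 genes of MAPK feedback, 0.036 for 11 genes of the ATF4 response and 0.0055 for 9 immediate early and dissociation stress genes. Of 6 tested G2 and mitosis genes outside the choice of cells and 2 tested S phase genes none was called, with medians of -0.073 and -0.0016.

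Over the 5 rank groups the mean level went in 1 direction from step to step for 24 of the 39 genes, 17 of the 27 that rose and 7 of the 12 that fell. The same was so for 3.53% of all genes tested, but the difference between rank groups 1 and 5 chose the 39 genes and fixes the ends of their order, so the count is a description. Mt1 was at 63.2, 83.1, 91.1, 95.7 and 109 UMIs per 10000 from rank group 1 to rank group 5, and Ccn4 at 0.210, 0.471, 0.713, 1.04 and 1.95. Plekhs1 fell from 3.95 over 3.00, 1.90 and 1.51 to 1.01. Pax8 had its highest mean in rank group 3, at 6.08. The means of Tg itself were 31.3, 67.2, 103, 151 and 269.

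**Figure D4:**
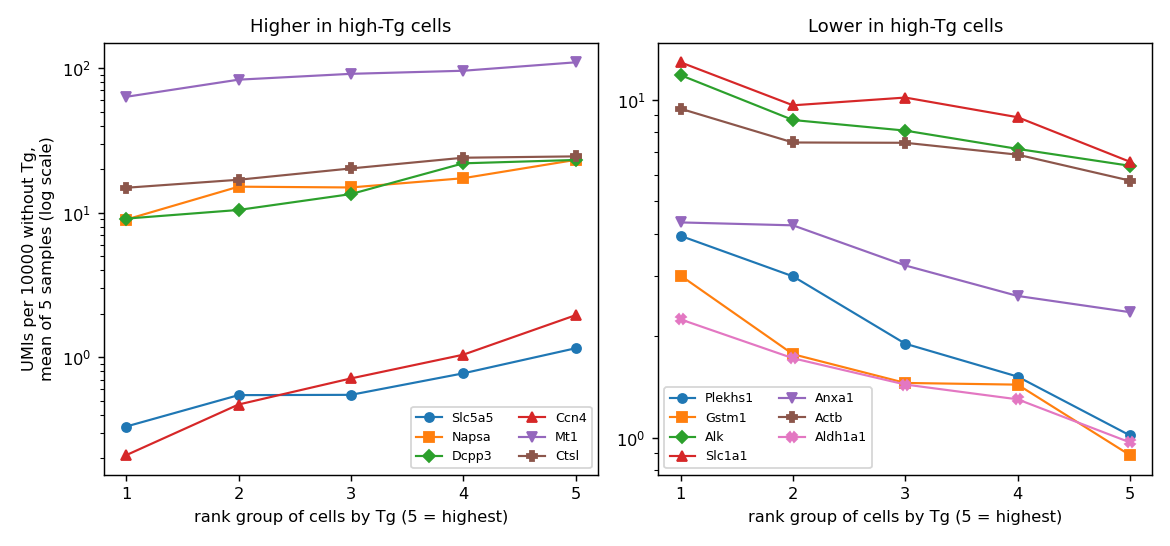
Mean level over the 5 organoid samples (vertical axes, UMIs per 10000 without Tg, log scale) in the 5 rank groups by Tg (horizontal axes, 5 the highest) for 6 genes called higher (left) and 7 called lower (right). Slc5a5, Dcpp3, Ccn4, Mt1 and Ctsl rise at each step, and Slc1a1 rises once between rank groups 2 and 3.

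Cells of rank groups 4 and 2 of each sample are in neither of the compared groups and allow a look at other cells of the same samples. This comparison was added after the data had been seen. Of the 39 genes, 35 had the same sign in rank group 4 against rank group 2 (25 of the 27 that rose and 10 of the 12 that fell), while 49.99% of all genes tested were higher in rank group 4. The median log2 difference was 0.20 for the genes that rose, against 0.68 between rank groups 5 and 1, and -0.18 against -0.68 for those that fell. Ctsl, at 0.49, Mt1 and Napsa, each at 0.20, were higher in rank group 4 in 5 of 5 samples. None of the 39 passed the limma test in this comparison, which called 2 of 4648 genes (228 at an unadjusted p under 0.05).

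**Figure D5:**
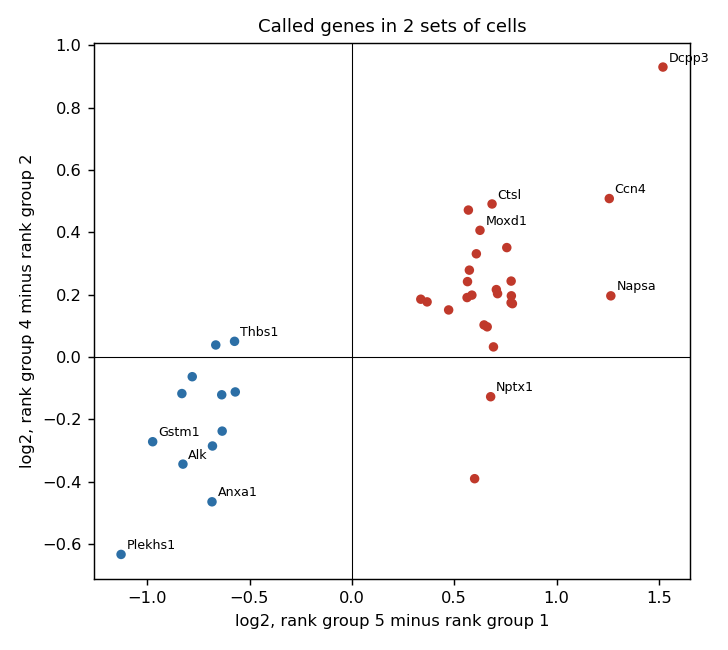
Log2 difference between rank groups 5 and 1 (horizontal axis) and between rank groups 4 and 2 (vertical axis) for 38 of the 39 called genes, red for those that rose and blue for those that fell. Dcpp3 and Ccn4 are high and Plekhs1 is low on both axes, and Nptx1 and Thbs1 are among the 4 genes whose signs differ.

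Late and early samples were compared by asking whether the difference between high-Tg and low-Tg cells depends on passage. With limma, 0 of 4623 genes (0%) passed in this contrast of 3 late and 2 early samples, with 301 at an unadjusted p under 0.05. The late minus early difference was -0.19 ± 0.33 (log2, SE) for Napsa and 0.17 ± 0.31 for Slc5a5. Without early 1 the count was 5 and without early 2 it was 6, each with the other early sample alone in its group, which is then assumed to vary like the late samples.

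The well barcode was checked because each plate uses the same set. Tg had a correlation of 0.043 between cells of different organoid samples that carry the same barcode (2238 pairs of 1457 organoid cells of at least 1000 UMIs, a description). When cells were ranked by Tg less the mean deviation of their barcode in the other samples, which could be done for 757 of the 838 cells, 5 of the 39 genes passed, Ccn4, Mt1, Mt2 and Pla2g7 among them. All 39 kept their direction there, which is a description, since the groups come from the same ranked cells.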

How the data were processed

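Single cells of 2 thyroid tissue and 5 organoid samples were sequenced by the authors with SORT-seq. The submitters' processing notes name Trim Galore 0.4.3, STAR 2.5.3a, Seurat and the mouse builds GRCm38 and mm10. The authors deposited 1 table of natural log values, ln(1 + UMIs per 10000 UMIs of the cell). UMIs were recovered from the steps of these values, and 100% came out whole within 0.01. No doublet caller was run, since cells were sorted 1 per well.

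Organoid cells with at least 3000 UMIs and at most 1 of 9 cycling markers were ranked by Tg in each sample and cut into 5 rank groups. For each gene the mean UMIs per 10000 UMIs other than Tg was taken over the cells of rank group 5 and of rank group 1, which gave 10 means. Genes that averaged 0.5 or more across these means were tested with limma 3.58.1 (R 4.3.3) on log2(level + 1), with the sample as a block and a trended variance, and p-values were adjusted by Benjamini-Hochberg with a threshold of 0.05. The block pairs high-Tg and low-Tg cells of the same sample. Single values were tested with an exact two-sided sign-flip permutation test. Python 3.11.15, numpy 2.4.6, scipy 1.17.1 and pandas 2.3.3 were used, and the fit was tested on simulated data.

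Genes were named if they were among the 12 largest called rises or falls with a group mean of at least 1 and the same sign in all samples, if they were tested genes of hormone synthesis or thyroid transcription factors or Tshr, or if they were called members of another list (up to 4 with the smallest adjusted p), with predicted genes counted only. Some genes are not reported here and were left out of the lists, while the fit and its totals kept them. The members and the gene lists were chosen with earlier results of these data known. Of 27 alternatives, 3 were chosen after seeing the data: leaving out late 2 and early 1, leaving out cells with 6 or more S phase genes, and comparing rank groups 4 and 2. Gene positions are from GENCODE M21 (GRCm38). Of 49 genes looked up, 29 had a promoter in the RefSeq table.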

Additional observations from a re-analysis of the deposited data

Results flagged for a closer look

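Per-sample log2 differences between high-Tg and low-Tg cells were examined for 48 genes, and in 5 of them 1 sample lay far from the other 4 (Dixon's test at 95%, which chance alone passes in about 1 of 20 sets). Ppp1r1b differed by 0.24 in late 2 and by 0.86 to 0.92 in the other samples. Plekhs1 differed by -2.20 in late 3 and by -1.02 to -0.76 in the others. Alk differed by -1.35 in early 2 and by -0.79 to -0.60 in the others. Actb differed by -0.21 in late 2 and by -0.78 to -0.67 in the others. Gm50019, a predicted gene, differed by 1.15 in early 2 and by 0.41 to 0.61 in the others.

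The well barcode is outside the main measurement. Among called genes, levels of the predicted genes Gm3294 and Gm34623 had correlations of 0.630 and 0.164 between cells of different organoid samples with the same barcode, against 0.043 for Tg. A correlation above 0.1 was seen in these 2 of the 39 called genes and in 17.5% of the genes tested. The part of the barcode in their calls was not tested gene by gene.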

How the results depend on the processing

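None of the 39 called genes reversed in the 26 alternatives that compare the outer parts of the Tg ranking (37 were fitted in all of them, Thbs1 and Dcpp2 in 25). Many of these fits reuse cells that chose the 39 genes, so the kept direction is a description. The number called varied. It was 5 with no filter on low values, 23 with cells thinned to 3000 UMIs (13 higher and 10 lower), 21 when cells were ranked within 5 depth bins, 23 with a depth term, 23 with at least 5000 UMIs, 23 for the outer tails of 10 rank groups, 6 with no cycling marker, 0 without cells of 3 or more S phase genes, 17 without those of 6 or more, 5 with Tg less the mean of its barcode, and 2 between rank groups 4 and 2. Without the replicate block, which ignores that high-Tg and low-Tg cells share a sample, 2 genes were called and 0 of those on the lists. Fits without 1 sample gave 9 to 30 genes. Many of these counts include genes outside the 39. Of the 39, 4 passed with no filter, 19 thinned, 18 in depth bins, 19 with a depth term and 22 at 5000 UMIs. In the outer tails of 10 rank groups 20 passed, without cells of 6 or more S phase genes 16, and without 1 sample 7 to 25. The causes were not tested. The filter on low values left out rare genes such as Duox2 and Slc26a4, and 5 samples limit the exact test to a p of 0.0625.

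Of the 39, 18 are on the gene lists. The number of list genes called was 2 with no filter, 11 with summed UMIs and 10 thinned. It was 11 in depth bins, 10 with a depth term, 11 at 5000 UMIs and 4 with no cycling marker. Without cells of 3 and 6 S phase genes it was 0 and 9, by barcode 2, and without 1 sample 2 to 11. The passage contrast called 0 genes, and 0 without each of the late samples. Without early 1, without early 2 and without both late 2 and early 1, only 1 early sample was left. Those fits have no early replicate. The depth difference kept its sign in its alternatives.

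Without 1 sample, the far ends of the ranges of these genes were -0.12 (Cyba), -0.21 (Pax8), 0.20 (Nkx2-1), 0.076 (Hhex) and 0.11 (Glis3). Reversals were seen in genes that were not called, 32 in all. Kcnq1 was at -0.13 (thinned), -0.23 (S phase) and -0.010 (barcode), and Cyba at 0.022 without early 2. Pax8 was at 0.085 (3 rank groups), 0.17 (barcode), 0.056 (estimated weights), 0.22 (without late 2 and early 1) and 0.16 (without early 1). Nkx2-1 was at -0.060 (thinned), -0.046 (5000 UMIs) and -0.015 (without late 3). Hhex was at -0.083 (depth bins), -0.023 (2000 UMIs), -0.0048 (5000 UMIs), -0.046 (3 rank groups), -0.014 (no cycling marker), -0.0035 (barcode), -0.019 (without late 2 and early 1) and -0.0058 (without late 2). Glis3 was at -0.040 (5000 UMIs), -0.15 (10 rank groups), -0.095 (no cycling marker), -0.41 (S phase), -0.099 (barcode), -0.032 (without late 1) and -0.025 (without late 3). Tshr was at -0.015 (thinned), -0.021 (5000 UMIs), -0.021 (no cycling marker), -0.26 (S phase) and -0.012 (without late 1).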
